A study of Mus musculus with 4 samples.

Results

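The 6 genes Egr1, Srf, Etv5, Klf10, Mcl1 and Phlda1 are transcription and survival genes known as outputs of ERK signaling, and each of them carried 1 of the 4523 E2F1 peaks measured in mouse embryonic stem cells (ESCs). A peak was taken as a member when it overlapped the window from 1000 bp upstream to 500 bp downstream of any annotated transcript start of these genes, and all 6 genes gave 1 peak each, with no further peak within 10000 bp of their starts. The genes were chosen by their serum and 2i values in these same 4 samples, so the differences at their peaks are given below as descriptions and carry no test. ChIP-seq with an antibody against E2F1 covered 2 serum samples, kept in medium with fetal calf serum and LIF, and 2 2i samples, kept in serum-free Ndiff 227 medium with LIF, PD0325901 and Chiron. PD0325901 blocks MEK and with it ERK activation, whereas Chiron blocks GSK3. The cells were adapted to their medium over 20 days, and the ESC line used for ChIP is not given in the sources used here. Serum, MEK inhibition and GSK3 inhibition change together between the groups, so their shares in any difference cannot be told apart. In bulk chromatin, lower occupancy in every cell and occupancy in fewer cells cannot be told apart either, and RNA from these genes was not analysed here.

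ERK is the last kinase of the cascade that runs from growth factor receptors through RAS, RAF and MEK. It phosphorylates the ternary complex factors, ETS-domain proteins that sit beside SRF at serum response elements, where SRF itself binds the CArG box. Immediate-early genes such as Egr1 are switched on from these elements within minutes of stimulation. In ESCs the main source of ERK activity is FGF4, which the cells make themselves, and ERK activity prepares them to leave the naive state. E2F1 is a cell cycle transcription factor held in check by RB family proteins, and E2F proteins bind GC-rich sites at promoters that are active through G1 and S phase.

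The sequences shown are some of the CArG boxes and E2F-type letters that the motif counts below turn on. The CArG boxes of Egr1 are not printed. Sequences are given 5′ to 3′ on the gene's strand, in lower case with the matched motif in capitals, from the NCBIM37 (mm9) genome. A CArG box is a run of A and T letters framed by a pair of C and a pair of G. The ETS core was searched as CCGGAAG, and both it and the E2F motif on either strand. The E2F motif was counted where the letters read TTCCCGC, where they read TTCGCGC, where they read TTGCCGC and where they read TTGGCGC. No matches at the 6 genes overlap. The first sequence is the part of the Srf peak that lies upstream of the Srf start (chr17:46693112-46693262, minus strand), with 1 ETS core at -122 and CArG boxes starting 82 and 62 bp before the start. The Klf10 and Mcl1 lines are 30-base windows around every E2F match inside a member peak, at chr15:38229013-38229042, chr15:38229222-38229251 (both minus strand) and chr3:95463430-95463459 (plus strand). The last 4 lines are 30-base windows at the 2 peaks outside the 6 genes that also hold a pair of CArG boxes, those of Dusp5 (chr19:53603543-53603572 and chr19:53603553-53603582, plus strand) and of Actb (chr5:143668447-143668476 and chr5:143667517-143667546, minus strand).
Srf, peak upstream of the start: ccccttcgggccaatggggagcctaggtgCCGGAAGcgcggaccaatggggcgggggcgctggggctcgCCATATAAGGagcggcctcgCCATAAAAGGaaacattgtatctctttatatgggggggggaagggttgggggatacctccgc
Klf10, upstream E2F site: cctccgccagggGCGGGAAcgaggcccggc
Klf10, downstream E2F site: aaaggtgacggcGCGGCAAttcccagttca
Mcl1, E2F site: ggccgggccgtGCGGGAAgagggaagagcc
Dusp5, first CArG box: ggggaaatacCCATATTTGGccttatatgg
Dusp5, second CArG box: ccatatttggCCTTATATGGgcactcacgt
Actb, first CArG box: ccgaaagttgCCTTTTATGGctcgagtggc
Actb, second CArG box: ccagcgtttgCCTTTTATGGtaataatgcg

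The Srf stretch holds its ETS core and CArG boxes close to each other, and the Dusp5 boxes follow directly on one another. The E2F letters shown for Klf10 and Mcl1 lie inside the genes, downstream of the most upstream start.

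Depth in peaks ranged from 248878 reads in serum replicate 1 to 710519 in 2i replicate 1, and the remaining serum and 2i samples had 450420 and 395738. Values are the deposited normalized counts per peak. A fold change is the difference of means of log2(normalized count + 1), serum minus 2i, with its standard error (SE) from limma. The word called marks peaks whose log2 fold change exceeded 1 in size while limma's unadjusted p stayed under 0.05. Over all peaks, 466 (10.3%) were called, of which 218 (4.82% of peaks) had more signal in serum and 248 (5.48%) in 2i. At 24.9% of peaks both serum values lay above both 2i values. Taking all peaks, the median log2 fold change was -0.03.

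E2F1 signal was higher in serum ESCs at 4 of the 6 genes without overlap between the groups (24.9% of all peaks), and the fold changes of all 6 were positive. Egr1 stood far apart, with 20.5 times as much signal in serum as in 2i. Mcl1 and Srf were about 2-fold higher in serum, Etv5 less than 2-fold, and Klf10 and Phlda1 had overlapping groups. The median log2 fold change of the 6 peaks was 0.88. Since the genes were chosen with these values known, the background shares given above are printed for scale and nothing is read from the comparison.

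Egr1 encodes a zinc-finger transcription factor and is among the first genes transcribed after ERK activation. Its peak (ENSMUSG00000038418.6, chromosome 18, 35020715 to 35021182, 467 bp) reached from 145 bp upstream of the start, across the 5′ untranslated region, into the first 40 bp of coding sequence. The normalized count was 361 and 186 in the serum samples and 16.2 and 10.4 in the 2i samples, replicate 1 first. Both serum values exceeded both 2i values, and the lowest ratio between a serum and a 2i sample was 11.4. Mean signal was 273 ± 124 (SD, n = 2) against 13.3 ± 4.10 in 2i (n = 2). The log2 fold change of 4.21 ± 0.39 (SE) was the highest of all 4523 peaks. A region could enter the peak set through 1 condition alone, however low its signal in the other, so this rank is a description. The 2i values rested on 29 and 10 reads, so that the 95% Poisson interval reached up to 23.3 in 2i replicate 1 and 19.2 in 2i replicate 2, while the serum values rested on 207 and 195 reads. The intervals cover counting error only. Leaving out 1 sample at a time gave log2 fold changes from 3.73 to 4.69. The serum replicates differed 1.94-fold from each other, more than those of any other of the 6 genes.

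Srf encodes the MADS-box factor that binds CArG boxes, and its own promoter is a textbook target of SRF. Its peak (ENSMUSG00000015605.5, chromosome 17, 46692371 to 46693262, 891 bp) reached from 151 bp upstream of the start through the 5′ untranslated region into 406 bp of coding sequence. The normalized count was 202 and 150 in the serum samples and 76.1 and 94.9 in the 2i samples, replicate 1 first. The groups did not overlap, and the lowest serum value was 1.58 times the highest 2i value. Mean signal was 176 ± 37.1 (SD, n = 2) against 85.5 ± 13.3 (SD, n = 2) in 2i, with a log2 fold change of 1.02 ± 0.27 (SE). This value lies just past the fold change used for calls, and it was 0.97 after cyclic loess normalization and 0.93 after scaling all samples to the same total. Without serum replicate 1 it was 0.81, and without 2i replicate 1 it was 0.87.

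Etv5 encodes an ETS factor of the PEA3 group whose transcription follows FGF and ERK activity. Its peak (ENSMUSG00000013089.8, chromosome 16, 22439447 to 22439949, 502 bp) covered 4 of the 6 annotated Etv5 starts. The normalized count was 233 and 219 in serum replicates 1 and 2, and 150 and 123 in 2i replicates 1 and 2. All serum values were above all 2i values, and the serum replicates were within 1.06-fold of each other. Mean signal was 226 ± 10.1 (SD, n = 2) against 137 ± 19.1 (SD, n = 2) in 2i, and the log2 fold change was 0.73 ± 0.25 (SE), short of the fold change used for calls. It ranged from 0.59 to 0.87 when 1 sample was left out.

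Klf10 encodes a Krüppel-like zinc-finger repressor first described as a gene induced by TGF-β. Its peak (ENSMUSG00000037465.8, chromosome 15, 38228667 to 38229540, 873 bp) did not touch the main cluster of 3 Klf10 starts but began 924 bp downstream of the most upstream one. It became a member through 1 shorter transcript that starts 998 bp into the gene, and 858 bp of it were annotated as intron. The normalized count was 303 and 237 in the serum samples and 238 and 176 in the 2i samples, replicate 1 first. The groups overlapped, because serum replicate 2 was marginally below 2i replicate 1. Mean signal was 270 ± 46.5 (SD, n = 2) against 207 ± 43.6 (SD, n = 2) in 2i, and the log2 fold change was 0.39 ± 0.27 (SE). It ranged from 0.17 to 0.60 when 1 sample was left out.

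Mcl1 encodes a short-lived anti-apoptotic member of the BCL2 family that holds the pro-apoptotic proteins BAK and BIM. Its peak (ENSMUSG00000038612.9, chromosome 3, 95462611 to 95463567, 956 bp) began 31 bp upstream of the start and covered 631 bp of coding sequence. The normalized count was 915 and 950 in serum replicates 1 and 2, and 362 and 465 in 2i replicates 1 and 2. The serum replicates nearly coincided, and the lowest ratio of a serum to a 2i sample was 1.97. Mean signal was 933 ± 25.2 (SD, n = 2) against 414 ± 72.8 (SD, n = 2) in 2i, and the log2 fold change was 1.18 ± 0.29 (SE). After cyclic loess normalization, which removes trends with signal strength, it was 0.76. All other scalings, pseudocounts and omissions left it above 1.

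Phlda1 encodes a cytoplasmic and nuclear protein with a pleckstrin homology-like domain, linked to both survival and cell death. Its peak (ENSMUSG00000020205.6, chromosome 10, 110943189 to 110943633, 444 bp) reached from 152 bp upstream of the start to 291 bp downstream. The normalized count was 40.1 and 60.1 in the serum samples and 40.3 and 45.9 in the 2i samples, replicate 1 first. Serum replicate 1 was the lowest of the 4 samples and serum replicate 2 the highest, so the groups overlapped. Mean signal was 50.1 ± 14.1 (SD, n = 2) against 43.1 ± 3.95 (SD, n = 2) in 2i, and the log2 fold change was 0.19 ± 0.37 (SE). Without serum replicate 2 its sign turned, to -0.0998. Serum replicate 1 held only 23 reads at this peak, with a 95% Poisson interval from 25.4 to 60.1 normalized counts that contained both 2i values.

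**Figure D1:**
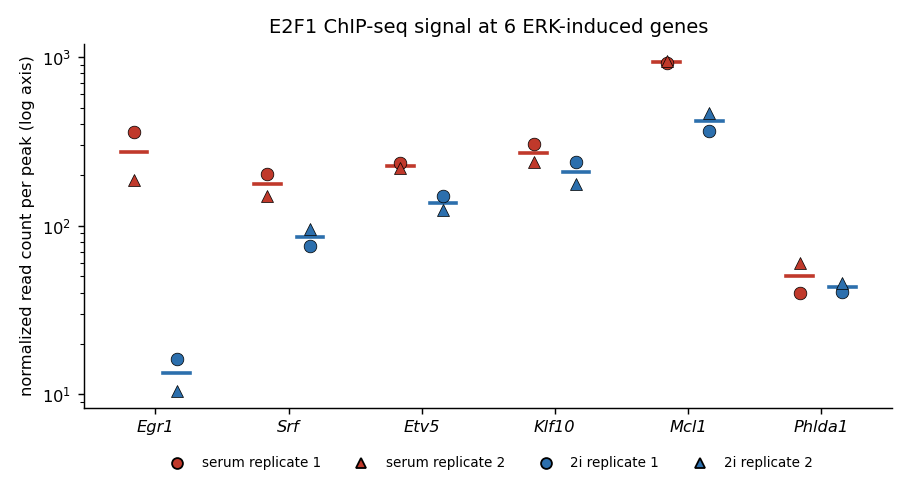
Normalized E2F1 ChIP-seq count (log axis) at the peak of each gene, with 1 point per sample (red, serum; blue, 2i; circles, replicate 1; triangles, replicate 2) and a bar at each group mean. Egr1 lay at 10.4 and 16.2 in 2i, Srf, Etv5 and Mcl1 had separate groups, and Klf10 and Phlda1 had overlapping ones.

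Compared per length, Mcl1 had the strongest occupancy of the 6 peaks in both media and Egr1 the weakest in 2i. In serum, the normalized count per kb was 957 and 994 for Mcl1, 772 and 398 for Egr1, 465 and 437 for Etv5, 347 and 272 for Klf10, 227 and 168 for Srf, and 90.3 and 135 for Phlda1, in replicates 1 and 2. Of neighbours in this order, only Egr1 and Etv5 overlapped. In 2i the values per kb were 379 and 487 for Mcl1, 299 and 245 for Etv5, 273 and 202 for Klf10, 90.8 and 103 for Phlda1, 85.5 and 107 for Srf, and 34.8 and 22.3 for Egr1. Here Etv5 overlapped with Klf10, and Phlda1 with Srf. Egr1 thus ranked next to Mcl1 by its mean in serum and last in 2i, whereas the order of Mcl1, Etv5 and Klf10 was the same in both media. Over the 4 samples, the mean per kb of Mcl1 exceeded that of 99.4% of all peaks, and that of Phlda1 only 38.0%, with a median of 126 over all peaks. The peaks of Srf, Klf10 and Mcl1 were also wide, each longer than 95% of peaks, against a median length of 480 bp.

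**Figure D2:**
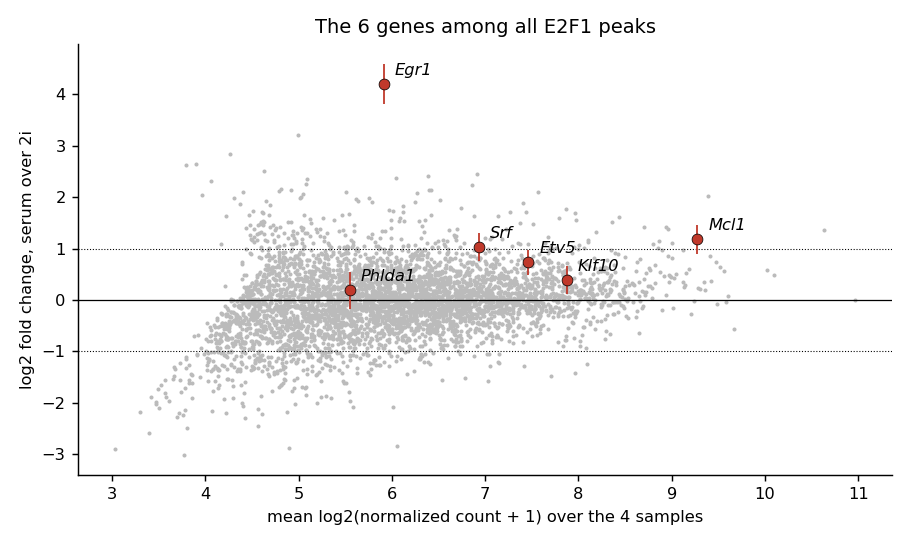
Log2 fold change of serum over 2i against the mean log2(normalized count + 1) of the 4 samples, for all 4523 peaks (grey) and the 6 genes (red, with SE bars), with dotted lines at log2 fold changes of 1 and -1. Egr1 lies above every other peak at 4.21, and Mcl1 lies among the strongest peaks.

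Inside the deposited peaks, no searched motif was common to all 6 genes. CArG boxes were present in the peaks of Egr1 and Srf, 2 in each, against 0.732% of the 4509 peaks placed on chromosomes that held at least 1. In Egr1 they started 105 and 83 bp upstream of the start, and 3 more stood outside the peak, at -407, -369 and -353, with an ETS core at -320. In the 500 bp upstream of the start, CArG boxes were found at 2 of the 6 genes (again Egr1 and Srf) and at 2.71% of 22342 annotated promoters, and the ETS core at 3 of the 6 (Egr1, Srf and Mcl1) and at 10.4% of promoters. The E2F motif was upstream of 2 of the 6, Etv5 and Klf10, and of 13.6% of promoters. The cyclic AMP response element TGACGTCA was at none of the 6, against 2.24% of promoters.

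The E2F motif was searched around the peak centres and over whole peaks. Within 200 bp of the peak centre it was present at 1 of the 6 genes, Klf10, and at 29.3% of all placed peaks. Over whole peaks it was present at Klf10, with 2 matches, and at Mcl1, with 1, and at 36.0% of all placed peaks. Klf10 had 7 matches between position -410 and the end of the peak, of which 2 were in the peak. The searched stretch was longer here than at the other genes, because the Klf10 peak lies further into the gene. The Etv5 match lay at -338, outside the peak, and no match was found between 500 bp upstream and the end of the peak at Egr1, Srf or Phlda1. A match describes letters only and is not a measured binding site, and the absence of these letters says nothing about E2F1. The GC content of the 6 peaks, 69.0% to 76.1%, spanned the median of all placed peaks, 74.6%.

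**Figure D3:**
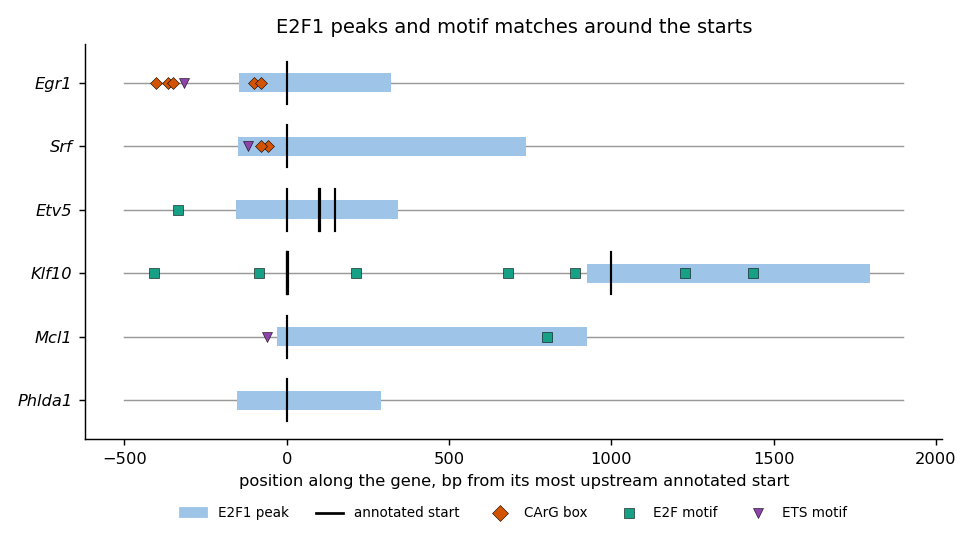
E2F1 peaks (blue bars) along the 6 genes in bp from the most upstream annotated start, with annotated starts as vertical lines and motif matches from 500 bp upstream to the end of the peak as symbols. CArG boxes (diamonds) sit just upstream of Egr1 and Srf, and E2F matches (squares) run along Klf10, whose peak begins 924 bp into the gene.

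The CArG box was followed to the other peaks that hold it, a choice made after the values were seen, so the counts are descriptions. Among placed peaks, 29 held 1 CArG box and 4 held 2. The 4 with 2 boxes were those of Egr1, Srf, Dusp5 and Actb, and all 4 had both serum values above both 2i values, with log2 fold changes from 1.02 to 4.21. Egr1 and Srf are among the 6 genes chosen by these values, and Dusp5 and Actb are in related lists drawn up with earlier results known. Nothing is therefore read from this class against the others. Of the 29 with 1 box, serum values lay above 2i values at 13 (44.8%), beside 24.5% of the 4476 peaks with none. Their median log2 fold change was 0.30, and 3 were called, of which Tmem150a was higher in 2i, which is 10.3% called beside 10.2% of peaks without a box. The 2 called higher in serum, nearest to Dgkh and to Pcdh17, lay 7264 and 1484750 bp from a start. Histone genes (Hist2h2ac, Hist1h2an, H2afx) were among the peaks with 1 box, at log2 fold changes of 0.90, 0.82 and 0.42, and were not called. Without the 6 genes, 31 peaks held a CArG box and 16.1% of them were called, and 1619 held an E2F motif and 9.02% of them were called, beside 10.3% of all peaks.

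**Figure D4:**
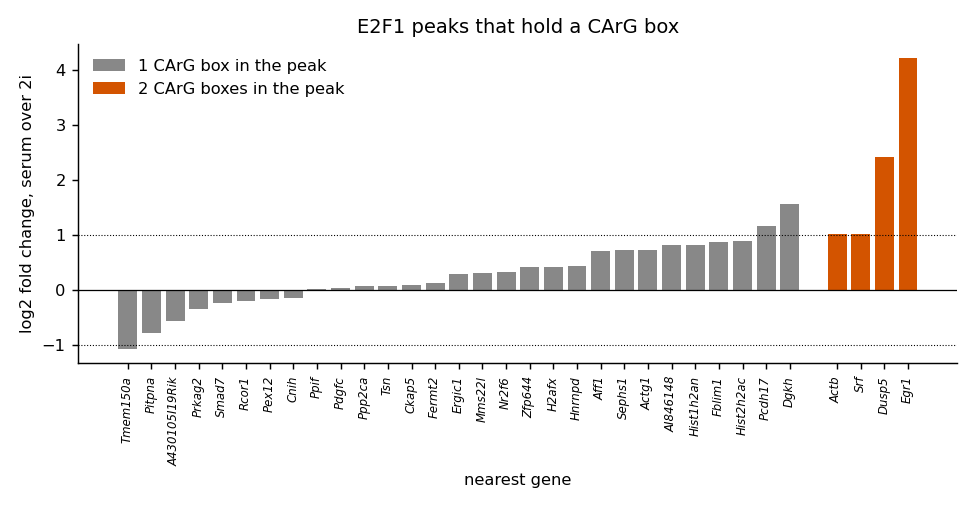
Log2 fold change of serum over 2i at every E2F1 peak that holds a CArG box, named by the nearest gene (grey, 1 box; orange, 2 boxes), with dotted lines at 1 and -1. The 4 peaks with 2 boxes reach 1.02 to 4.21, and those with 1 box range from -1.07 to 1.55. Egr1 and Srf were chosen by their values.

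The other genes of the pathway were taken from 7 lists of 103 genes in all, of which 102 were found in the annotation under the listed name, and 47 carried 50 peaks. The lists too were drawn up with earlier results of these samples known, so limma's calls at these peaks are not independent evidence of a direction. Of the 50, 12 were called (serum above 2i at 8 and below at 4), beside 10.3% of all peaks, and the median log2 fold change was 0.12. After Benjamini-Hochberg adjustment over all 4523 peaks, 4 of the 12 kept an adjusted p under 0.05. Without limma's variance trend none of them did, and 0 of all peaks were called after adjustment. Of these 4, 2 lie at starts of Ctbp2, which is also where 1 long annotated Fgfr2 transcript begins. Without these 2 peaks, 10 of 48 were called, with serum above 2i at 6 of them. After cyclic loess normalization 7 of the 50 were called.

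The negative feedback genes of ERK signaling, a list chosen with results of these samples in view, had 3 of 7 peaks called with more signal in serum and 1 with more in 2i. Over all peaks these shares were 4.82% and 5.48%, and nothing is read from the comparison. Dusp5, a nuclear phosphatase that inactivates ERK, had normalized counts of 204 and 180 in serum and 31.4 and 39.6 in 2i, and rose by 2.41 ± 0.29 on the log2 scale (limma, adjusted p = 0.00597). Spred1, an inhibitor of RAF activation, was at 390 and 433 in serum and 188 and 175 in 2i, with a log2 fold change of 1.17 ± 0.24 (adjusted p = 0.0410), which became 0.97 after cyclic loess normalization. Spry2, which dampens receptor signaling to RAS, was at 831 and 560 in serum and 190 and 337 in 2i, a log2 fold change of 1.43 ± 0.33 that missed the adjusted threshold (adjusted p = 0.0670). Dusp1, a phosphatase of several MAP kinases and itself an immediate-early gene, went the other way, at 10.5 and 13.3 in serum and 29.7 and 33.4 in 2i, with a log2 fold change of -1.34 ± 0.48 (adjusted p = 0.181). Only 6 and 14 reads lay behind the serum values of Dusp1, and its call was lost with cyclic loess (-0.89), with a pseudocount of 8 (-0.99) and, on the p alone, without 2i replicate 1 (-1.42) or 2i replicate 2 (-1.26). Spry1, Spred2 and Dusp7 were not called, at 0.69, 0.69 and 0.22.

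Of 25 other immediate-early genes, 5 had a peak, and none of these was called higher in serum, beside 4.82% of all peaks. Trib1, a pseudokinase, was called higher in 2i, at 17.4 and 24.8 in serum against 48.1 and 85.5 in 2i (log2 fold change -1.58 ± 0.43, limma adjusted p = 0.0963), a call lost on the p alone without 2i replicate 2 (-1.17). Jund, Klf2, Klf4 and Ier5 were at 0.53, -0.02, -0.28 and -0.82 and were not called. Fos, Junb, Ier2 and Egr2 were among the 20 with no peak in the window.

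None of the 7 peaks at other ETS genes was called, and the largest change among them was that of Etv3 (0.48 ± 0.35, limma adjusted p = 0.506). Of the genes around SRF, 1 of 5 peaks was called, beside 10.3% of all peaks. It was that of Actb, which encodes β-actin and is a classical SRF target. Actb was at 345 and 273 in serum and 142 and 161 in 2i (log2 fold change 1.02 ± 0.25, limma adjusted p = 0.0786), and fell short of the fold change for calls under both other scalings, at 0.93 with the same total and 0.86 with cyclic loess. Actg1, the cytoplasmic γ-actin gene, Cfl1, Tpm4 and Mkl2 were at 0.73, 0.61, 0.12 and -0.26, not called.

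Of the ERK cascade itself, 5 of 18 peaks were called, and 3 of 16 without the Ctbp2 peaks, beside 10.3% of all peaks. Fgfr2, a receptor for FGFs, had 1 peak at its own start called higher in serum (36.6 and 48.6 against 10.6 and 22.9, log2 fold change 1.37 ± 0.49, limma adjusted p = 0.181), a call lost without serum replicate 2 (1.17) or 2i replicate 1 (0.85). The Ctbp2 peaks, at a gene for a transcriptional corepressor, had log2 fold changes of 1.36 ± 0.26 and 1.78 ± 0.26 (limma adjusted p = 0.0347 and 0.0121). Fgfr1, the main FGF receptor of ESCs, and Sos2, an exchange factor for RAS, were called higher in 2i, at -1.50 ± 0.53 and -1.14 ± 0.34 (limma adjusted p = 0.175 and 0.121). The called Fgfr1 peak rested on 4 and 10 reads in serum, and a second Fgfr1 peak, at -0.92, was not called. The Fgfr1 call was lost with cyclic loess (-0.79). It was also lost, on the p alone, without 2i replicate 1 (-1.39) and without 2i replicate 2 (-1.61), and the Sos2 call without serum replicate 1 (-0.72). Mapk3, which encodes ERK1, was at -0.44 and was not called. Braf, Map2k2 and Fgf4 were at 0.36, 0.05 and 0.09, not called either. The largest uncalled change toward serum in this list was that of Rps6ka2, a kinase activated by ERK, with serum above 2i in all samples and a log2 fold change of 0.82 ± 0.27 (limma adjusted p = 0.156).

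The BCL2 family had 3 peaks beside that of Mcl1. These, at Bcl2, Bcl2l11 (which encodes BIM) and Bbc3 (which encodes PUMA), were at 0.13, 0.13 and 0.54, and none was called (for Bbc3, SE 0.42 and limma adjusted p = 0.543). The Bbc3 value ranged from 0.09 without 2i replicate 1 to 0.99 without 2i replicate 2, and was 0.17 without serum replicate 2 and 0.91 without serum replicate 1. Of 5 peaks at paralogs of Klf10 and Phlda1, that of Klf9 was called higher in serum, at 402 and 311 against 146 and 204 (log2 fold change 1.03 ± 0.27, limma adjusted p = 0.0919), and it dropped below the fold change for calls with either other scaling. Klf11, the closest relative of Klf10, was at 0.06, and Phlda3 was at -0.78, not called.

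**Figure D5:**
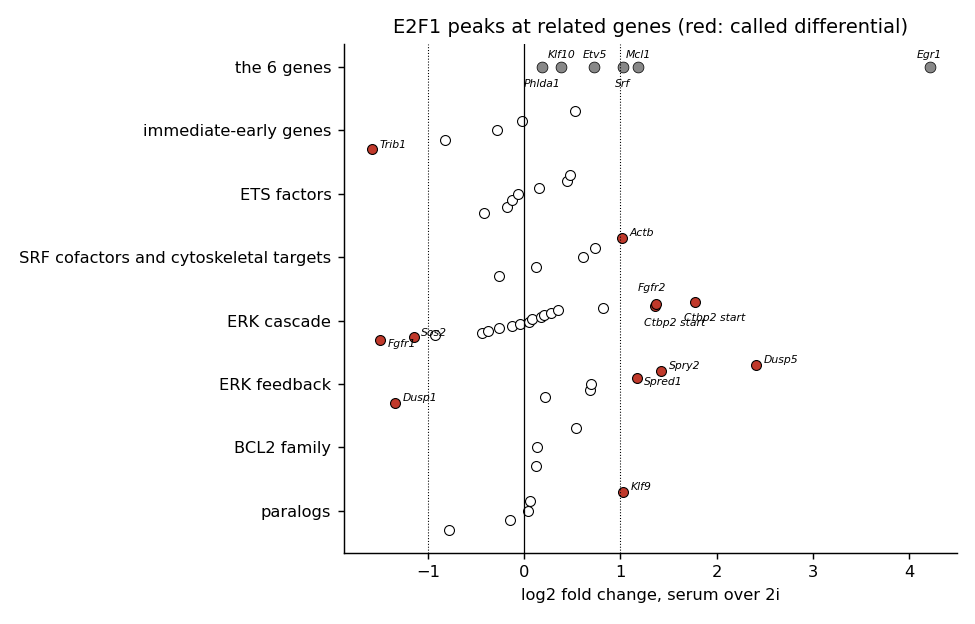
Log2 fold change of serum over 2i at the peaks of the 6 genes (grey, not tested) and of 7 lists of related genes, with 1 point per peak (red, called by limma; white, not called) and dotted lines at 1 and -1. The feedback genes have 3 of 7 peaks called higher in serum, and the immediate-early list has none.

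The peaks most like those of Egr1 and Phlda1, the genes with the highest and the lowest fold change, were sought over the 4 samples by the Euclidean distance between log2 values centred on their mean, among 4517 other peaks. Nearest to Egr1 were a peak 32764 bp from a start of P4ha2 (distance 1.70, log2 fold change 3.22), one 13365 bp from a start of Ctnna3 (1.76 and 2.64) and one at Tcf15 (1.77 and 2.46). These distances are large, since no peak shared the full span of Egr1. The Tcf15 peak had normalized counts of 348 and 226 in serum and 60.5 and 41.7 in 2i. The other peaks had low counts in 2i. The P4ha2 peak was at 120 and 77.2 in serum and 5.60 and 15.6 in 2i. The Ctnna3 peak was at 48.8 and 22.9 in serum and 8.96 and 2.09 in 2i. Nearest to Phlda1 were the peaks of Sec22c, Ing1 and Kcng3, at distances of 0.0594, 0.0672 and 0.0714, each with log2 fold changes from 0.13 to 0.21. With 4 samples such likeness is a description of shape only.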

How the data were processed

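E2F1 ChIP-seq was analysed in 2 serum and 2 2i samples, grouped by their titles, and the labels call the replicates biological. The authors' methods name BWA for alignment to mm9, picard for duplicates, the ENCODE blacklist, MACS2 peaks per sample, and bedtools to intersect replicates, merge both conditions and count reads. Tool versions are not given in the sources used here. The deposited values are a signal, reads per peak divided by 1 factor per sample: 99.95% of 18092 values were whole multiples of the sample's lowest step within 0.05 reads, and 9 serum values were exactly 2. One read was worth 1.74 and 0.953 in serum replicates 1 and 2 and 0.560 and 1.04 in 2i replicates 1 and 2, so the median peak held 35, 65, 111 and 58 reads. Peaks found in a single replicate are not in the table. A peak found in both replicates of 1 condition is, whatever its signal in the other condition.

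Each peak was tested with limma (3.58.1, R 4.3.3) on log2(signal + 1), with a variance trend, over the 4 samples and with no filter. The fit was tested on simulated data, where the unadjusted call rule called many unchanged peaks. How well the rule finds peaks that lie near the fold change used for calls was not tested. The exact two-sided permutation test of a single peak cannot go below p = 0.333 with 2 samples against 2, and calls draw on a variance estimated over all peaks together. Peaks were placed with the GENCODE M1 annotation of NCBIM37, leaving out 14 on unplaced contigs. Peak coordinates are the deposited ones. Their counting base is not stated, and starts were read as in BED files, from 0. Sequences were read from NCBIM37 and motifs searched in Python 3.11.15. Named peaks are those of the 6 genes, every called peak of the 7 lists and the largest change of each list, and the 3 peaks most like Egr1 and Phlda1. The peaks with CArG boxes and the levels of uncalled listed genes were chosen after the values were seen. The members and the lists were chosen with earlier results of these data known. A few of the listed genes are not reported here by name.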

Additional observations from a re-analysis of the deposited data

How the results depend on the processing

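The log2 fold changes of Egr1, Srf, Etv5, Klf10 and Mcl1 stayed positive under every pseudocount, scaling, filter and omission of a sample, and that of Phlda1 ranged from -0.0998 (without serum replicate 2) to 0.47 (without serum replicate 1). Phlda1 fell below the minimum mean of 50, so the median of the 6 was not computed there, and it ranged from 0.75 to 0.97 when 1 sample was left out. The member count was 6 with each other window, and E2F motifs were at 0 members with an 8-letter motif and at 2 over whole peaks. Calls over all peaks numbered 188 with a minimum mean of 50, and 378 to 674 when 1 sample was left out. Calls at the related genes numbered 7 with cyclic loess and 9 to 11 when 1 sample was left out. The share of calls higher in serum was 46.8%, but 36.3% with the same total, 58.3% with cyclic loess and 64.4% with the minimum mean. After adjustment 66 peaks were called (52 higher in serum), 0 without the variance trend (769 at an unadjusted p under 0.05), and 0 to 33 when 1 sample was left out, 0 without serum replicate 1 (566 at an unadjusted p under 0.05), 33 without serum replicate 2, 17 without 2i replicate 1 and 11 without 2i replicate 2. The causes were not tested. A replicate block gave 271 adjusted calls and 504 by the main rule, and the related genes kept a count of 12. The deviations of same-numbered samples correlated at 0.0483 across peaks. With 2 samples per group this cannot show whether same-numbered samples shared a day or batch. Of the named related peaks, Actb and Klf9 were not called without serum replicate 1 or 2i replicate 1, Sos2 without serum replicate 1 (-0.72), Fgfr2 at its own start without serum replicate 2 (1.17) or 2i replicate 1 (0.85), Trib1 without 2i replicate 2 (-1.17), and Fgfr1 and Dusp1 without either 2i replicate. Actb, Klf9, Fgfr1, Dusp1 and Spred1 were not called with cyclic loess, nor Actb and Klf9 with the same total, nor Actb (0.98) and Dusp1 (-0.99) with a pseudocount of 8, where 10 related peaks were called. The planned count-based tests on recovered reads were not run.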
